A study of Mus musculus with 20 samples.

Results

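GPS2 peaks that were called in 3T3-L1 cells both without and with FCCP, at a moderate and similar height, numbered 4098. Each is a peak of the untreated list on chromosomes 1 to 19 that shares at least 1 bp with a peak of the FCCP list, the partner with the longest overlap being taken, and both peaks hold at least 5 and fewer than 15 normalized tags. A normalized tag is a mapped read in the peak, scaled to a library of 10000000 tags. The 4098 pairs, called stable peaks here, made up 9.65% of the 42486 untreated peaks and 7.17% of the 57169 FCCP peaks on these chromosomes, and 23.4% of the 17538 pairs that overlap at any height. "Stable" is the outcome of this rule and not of a test: members were selected on their tag counts in both lists, so their heights and ratios are given as a description.

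GPS2 is a small protein of the nuclear corepressor complexes built on N-CoR or SMRT, which hold histone deacetylase activity at target genes of nuclear receptors and other factors. It also inhibits ubiquitin-conjugating activity outside the nucleus, and a part of it is found in mitochondria. FCCP is a protonophore that carries protons across the inner mitochondrial membrane, so that respiration runs without ATP synthesis and the membrane depolarises. The study asked whether GPS2 then moves to the nucleus, which makes sites with like signal before and after the uncoupler the counterpart of sites that gain it.

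3T3-L1 is a mouse preadipocyte line. The untreated group is 1 peak list made from a pool of 2 libraries, and the FCCP group is 1 list from another pool of 2. The labels give neither dose nor duration of FCCP, and name no step of differentiation into fat cells. The other lists are from brown adipose tissue (BAT) of mice on a mixed 129sv/C57BL6J background, 1 labelled male and 1 labelled female, both GPS2 wildtype; each was called against BAT of a GPS2 knockout of the labelled sex. The knockout is a floxed Gps2 allele recombined by Adipoq-Cre, which the adiponectin promoter drives in fat cells, so other cells of the tissue keep the gene. Ages are not given, and the growth protocol speaks of male mice only, at odds with the female label.

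The pools held 74504840 tags without and 66979291 with FCCP, and the BAT libraries 30069322 (male) and 39310667 (female). The 3T3-L1 lists were called without input or knockout, and with 1 list per condition there is no replicate check, so no p-value is given for any peak. Intervals below cover counting error only. Positions are those of the files, on mm8. No genome or annotation of that build was used here, so the peaks carry no gene names, exons or sequences.

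The lower limit of the rule passed through a crowded part of the lists. Of the stable peaks, 1031 had a lower count under 5.5, while 1813 pairs fell between 4.5 and 5. The lowest stable peak, on chromosome 1 at 11609686 to 11609950, had 5.1 normalized tags without and 5.08 with FCCP. The nearest pair below the limit, on chromosome 1 at 15770952 to 15771216, had 4.97 and 5.08. At the upper limit the lists were thin: 55 stable peaks reached 14 or more in one list, and 35 pairs had their higher count between 15 and 16. The stable peak nearest to that limit, on chromosome 2 at 5296330 to 5296594, had 13.8 and 14.9, and the nearest pair above it, on chromosome 11 at 20211143 to 20211407, had 11.9 and 15.1. The group is thus the upper shoulder of a continuous range rather than a separate class.

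Most stable peaks were near the lower limit. The median was 6.31 normalized tags without FCCP (quartiles 5.64 and 7.52) and 6.72 with FCCP (5.82 and 8.06). In reads, the stable peaks held 38 to 110 tags without and 34 to 100 with FCCP, with medians of 47.0 and 45.0. The lower of the counts was below 7 in 2972 of them, from 7 to 10 in 854 and above that in 272. Across the 4098 peaks, heights in the 2 lists had a Spearman's rho of 0.67, a description within limits that bound both axes.

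**Figure D1:**
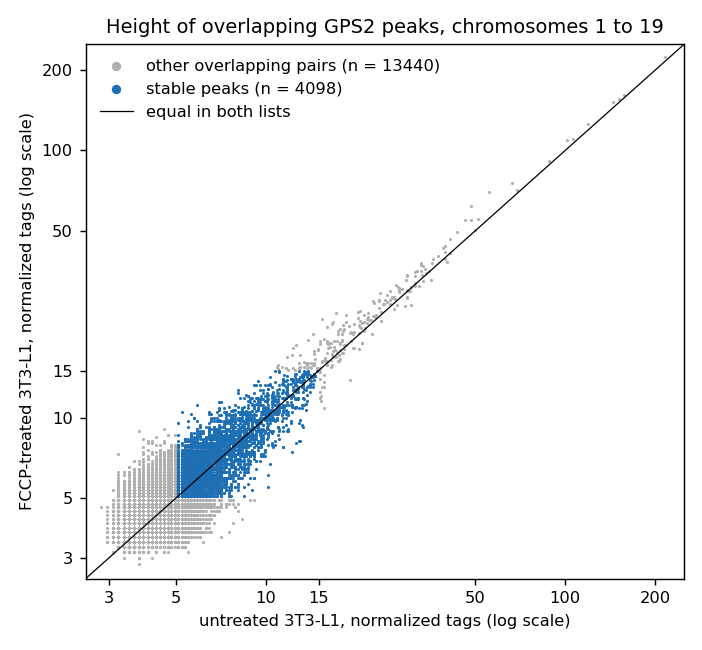
Height of each of the 17538 overlapping peak pairs on chromosomes 1 to 19, in normalized tags on log axes, without FCCP (x) and with FCCP (y); blue points are the 4098 stable peaks, grey points the other pairs, and the line marks equal height. The stable peaks lie in a square from 5 to 15 on both axes, with more points above the line than below it.

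Peaks of this height were not all found in both lists. Of the 7776 untreated peaks at 5 to 15 normalized tags, 52.7% were stable, 1056 had an FCCP partner outside the limits and 2622 had no overlapping FCCP peak. Of the 11946 FCCP peaks at this height, 34.3% were stable, 2328 had an untreated partner outside the limits and 5520 had none. Peaks without a partner mostly had no called peak close by. The other list had a peak centre within 1000 bp for 426 of the 2622 (16.2%) and for 635 of the 5520 (11.5%). Signal just under the limits of the call leaves no entry in a list, so these distances do not show that signal was absent. Having a height of 5 to 15 in one list therefore did not by itself place a peak in this group.

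Within the group, heights after FCCP were close to those before. The median log2 ratio of FCCP to untreated tags was 0.06 (quartiles -0.08 and 0.21), a ratio of 1.04, against 0.07 over all pairs. FCCP was the higher list at 2473 peaks, 60.3% of them, where the share over all pairs was 60.6%, the lower at 1563 and equal at 62. FCCP tags were at least 25% above untreated ones at 505 peaks (12.3%, with 15.9% of all pairs), and the reverse held at 188 (4.59%, with 6.22% of all pairs). At 1.5-fold the numbers were 49 up (1.20%, with 2.40% of all pairs) and 14 down (0.342%, with 0.707%). At 2-fold they were 1 up (0.0244%, with 0.0342% of all pairs) and 0 down (with 0.00570%). The rule itself keeps the ratio within 3-fold and removes pairs that leave the limits, so nothing is read from these smaller shares.

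The SD of the log2 ratio was 0.23, while counting error of the tags alone would give 0.30. Over all pairs, which the limits of 5 and 15 do not bound, the SD was also the lower value, 0.26 against 0.36. The source of this shortfall was not tested. Among stable peaks the SD narrowed with height, from 0.23 where the lower count was under 7 to 0.15 where it was above 10. The counting value narrowed from 0.31 to 0.22. The limits of 5 and 15 trim the ratios and leave them less room as the lower count rises. The largest ratio was 2.01 in the lowest of these bins and 1.39 in the highest. Nothing is therefore read from the narrowing or from an SD below the counting value. The exact 95% interval of a single ratio lay above 1 at 56 stable peaks (1.37%, with 1.08% of all pairs) and below 1 at 17 (0.415%, with 0.239%). These intervals make no allowance for the 4098 peaks looked at, so they do not show that any of these peaks changed. At the other stable peaks, an interval that includes 1 does not show that occupancy was equal.

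**Figure D2:**
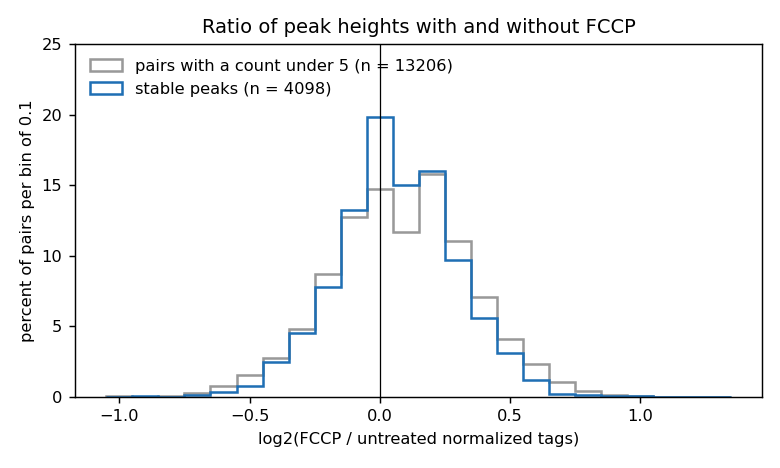
Distribution of the log2 ratio of normalized tags, FCCP over untreated, as the percent of pairs in bins of 0.1, for the 4098 stable peaks (blue) and the 13206 pairs with a count under 5 in either list (grey). Both centre slightly above 0, at medians of 0.06 and 0.07, and the stable peaks, whose ratios the rule bounds, form the narrower curve.

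The tallest stable peaks, ranked by the lower of their counts, were close to the upper limit of 15 in both lists. That ranking under that limit leaves their ratios no room to stray from 1, so they show height only. The first, on chromosome 5 at 3620120 to 3620384, had 14.8 normalized tags without and 14.9 with FCCP, a ratio of 1.01 (exact 95% interval 0.764 to 1.34). The next were on chromosome 2 at 162049620 to 162049884, with 14.5 and 14.6, and on chromosome 1 at 122111057 to 122111321, with 14.6 and 14.3. The others lay on chromosome 5 at 3968742 to 3969006, with 14.4 and 14.3, and on chromosome 8 at 3556190 to 3556454, with 14.6 and 14.3. The 2 peaks of chromosome 5 belong to 1 of the crowded stretches described further on, and 1 of them, at 3620120, also overlapped a male BAT peak of 5.32 normalized tags.

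Some members of the group had observed ratios far from 1. The largest ratio, on chromosome 16 at 44114336 to 44114600, rested on 5.23 normalized tags without and 10.5 with FCCP (2.01-fold, 1.33 to 3.03). On chromosome 12 at 3320922 to 3321186 the counts were 5.91 and 11.2 (1.90-fold), and on chromosome 13 at 4605153 to 4605417 they were 5.1 and 9.56 (1.87-fold). The remaining large ratios were on chromosome 4 at 70445123 to 70445387, 1.83-fold from 5.64, and on chromosome 7 at 72759109 to 72759373, 1.76-fold from 5.5. All 5 started within 1 normalized tag of the lower limit in untreated cells, and all 5 intervals lay above 1.

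The smallest ratio, on chromosome 16 at 85529503 to 85529767, rested on 10.2 normalized tags without and 5.52 with FCCP (0.541-fold, 0.355 to 0.812). The next lay on chromosome 11 at 87287542 to 87287806, with 8.99 and 5.37 (0.597-fold), and on chromosome 12 at 60056100 to 60056364, with 10.2 and 6.12 (0.600-fold). The remaining small ratios were on chromosome 13 at 103673557 to 103673821, with 8.46 and 5.08 (0.600-fold), and on chromosome 3 at 142129076 to 142129340, with 12.2 and 7.46 (0.611-fold). The intervals of all 5 lay below 1. Being picked as extremes among 4098 pairs, the peaks of largest and smallest ratio have intervals that make no allowance for the picking. They do not show that any of these peaks changed.

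The rule asks for overlap and takes the longest, which caps the distance between paired centres at about 1 peak width, so the distances are given as a description. The distance between the centres of the paired peaks had a median of 34 bp (quartiles 11 and 80), for peaks 264 bp (untreated) and 261 bp (FCCP) wide. Centres lay within 10 bp at 975 stable peaks (23.8%) and within 50 bp at 2515 (61.4%), and more than 200 bp apart at 128 (3.12%). Pairs with a count under 5 were looser, with a median of 46 bp and 14.6% within 10 bp, and pairs of 15 or more tighter, with 11.5 bp and 47.4%. Among stable peaks the median was 35 bp where the lower count was under 7, 34.5 bp from 7 to 10 and 19.5 bp above that. The called position thus differed least between the lists at the tallest stable peaks, and the median signed shift over all of them was -1 bp.

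Most stable peaks stood only moderately above their surroundings. The deposited fold over the surrounding 10000 bp, which had to reach 4 in both lists, had medians of 5.5 without and 5.71 with FCCP. Over all pairs the medians were 5.32 and 5.56, so a moderate fold was not particular to stable peaks. It was under 5 at 1466 stable peaks (35.8%) in the untreated list and at 1250 (30.5%) in the FCCP list, and at 902 in both. It reached 8 in both lists at 559 (13.6%), where 8.61% of all pairs did. Pairs with a count under 5 had 6.29% and pairs of 15 or more 51.7%. A peak's own tags enter this fold and the rule sets a floor on them, so nothing is read from the difference to all pairs. The surroundings themselves held a median of 1.17 normalized tags per peak width without and 1.18 with FCCP, below the genome averages of 1.32 and 1.31 in the file headers. They were below average at 69.8% and 66.0% of the stable peaks. A peak of 5 normalized tags passes the 4-fold rule only there, so that the call fixes part of these shares. Over all pairs the surroundings were lower still, at medians of 0.816 and 0.823, so low surroundings were not particular to stable peaks.

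A small set stood far out. The fold reached 20 in both lists at 23 stable peaks. The share of all pairs at that limit was not taken, so the number is not read as particular to stable peaks. The most isolated, on chromosome 4 at 93336341 to 93336605, was 71.2-fold over its surroundings without and 106.6-fold with FCCP, at 11.1 and 14.9 normalized tags. Next, on chromosome 14 at 89758384 to 89758648, the folds were 36.9 and 50.1, at 6.71 and 7.61 normalized tags. On chromosome 4 at 20282609 to 20282873 they were 36.5 and 41.9, at 13 and 13.6 normalized tags. The others were on chromosome 6 at 131920003 to 131920267 (41.2- and 33.7-fold) and chromosome 12 at 96834123 to 96834387 (33.1- and 52.0-fold). In all 5 the centres of the calls lay within 7 bp of each other and the interval of the ratio included 1. The first 2 of them fell on very tall peaks of the female BAT list.

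The focus ratio, the share of a peak's tags that lie on the strand expected on each side of its centre, had a median of 0.691 without and 0.694 with FCCP at stable peaks. It was 0.714 and 0.722 at pairs with a count under 5, and 0.647 and 0.644 at stable peaks whose lower count was above 10. At pairs of 15 or more it was 0.656 and 0.674. The medians thus fell with height within the stable peaks and did not fall further above them.

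Stable peaks were found on every one of the 19 chromosomes, at 1.66 per Mb overall. Chromosome 18 had the lowest density, 1.19 per Mb, and chromosome 13 the highest, 2.39, with 2.20 on chromosome 1 and 2.14 on chromosome 5. Their share of all overlapping pairs was lowest on chromosome 6, at 17.5%, and highest on chromosome 13, at 33.3%. The median ratio of FCCP to untreated tags was above 1 on all 19, from 1.01 on chromosome 1 to 1.08 on chromosomes 7 and 16. Over all pairs the median log2 ratio was also above 0 on every chromosome, from 0.045 on chromosomes 1 and 19 to 0.112 on chromosome 14. This excess depends on the scaling of the lists: once divided by the median ratio of all pairs, the median log2 ratio of the stable peaks was -0.0155 instead of 0.06.

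**Figure D3:**
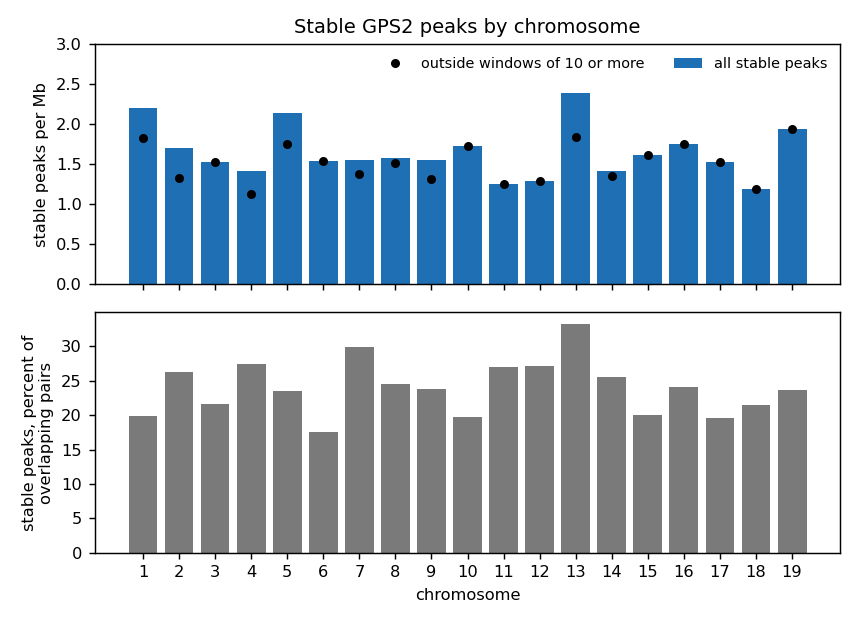
Stable peaks per Mb of chromosome (top: bars, all 4098; points, those outside 1 Mb windows with at least 10) and stable peaks as a percent of all overlapping pairs (bottom), for chromosomes 1 to 19. Chromosome 13 is highest in both panels, at 2.39 per Mb and 33.3%, and falls to 1.85 per Mb without the dense windows.

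Along the chromosomes they were uneven. Of 2472 windows of 1 Mb, 736 held no stable peak, the median was 1, and the fullest held 32. Windows with at least 10, a limit set after the values were seen, numbered 29 and formed 15 stretches. They held 431 stable peaks (10.5% of them), and this share is fixed by the choice of windows. They also held 6.79% of all pairs, 4.73% of untreated and 4.00% of FCCP peaks, but 0.560% of male and 0.678% of female BAT peaks, in 1.17% of the windows. The BAT lists had no part in choosing these windows, and were thin where the 3T3-L1 lists were dense. The cell and tissue lists were called by different rules, and the part of that in this contrast was not tested.

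The largest stretches differed in make-up. On chromosome 2, from 174 to 178 Mb, 74 of 120 pairs were stable (61.7%), with 28 male and 7 female BAT peaks in the whole stretch. On chromosome 13, from 65 to 68 Mb, 71 of 124 pairs were stable (57.3%), and neighbouring stable peaks lay a median of 16530 bp apart. On chromosome 4, from 145 to 147 Mb, 48 of 86 pairs were stable (55.8%). In these 3 stretches a stable height was more frequent than the 23.4% of pairs in all, which the choice of windows favours. Stretches on chromosome 1 (140 to 145 Mb, 64 of 285 pairs) and chromosome 5 (13 to 16 Mb, 36 of 179) were instead dense in pairs of every height, with 22.5% and 20.1% stable.

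Within the stretches, FCCP was the higher list at 225 of the 431 stable peaks (52.2%), against 2248 of the 3667 outside them (61.3%), and the median log2 ratios were 0.01 and 0.07, beside 0.07 over all pairs. The SD of the log2 ratio was alike, 0.22 in the stretches and 0.23 outside. In the wider block of chromosome 1 from 140 to 150 Mb, which held 96 stable peaks (2.34%, Wilson 95% interval 1.92 to 2.85) and 2.79% of all pairs, it was higher at 45 of 96 (46.9%). Stable peaks of that block overlapped 3 male and no female BAT peaks.

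Overlap with BAT is a measure that the rule did not use. Of the stable peaks, 233 of 4098 overlapped a male BAT peak by at least 1 bp (5.69%, Wilson 95% interval 5.02 to 6.44), where 2.81% of all untreated peaks did. A female BAT peak was met by 144 (3.51%, 2.99 to 4.12), where 1.61% of all untreated peaks did. At least 1 of the BAT lists was met by 362 (8.83%, with 4.24% of all untreated peaks), and both by 15 (0.366%, with 0.184%).

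For BAT peaks of any fold over knockout, this overlap was more frequent at 3T3-L1 peaks of 7 to 10 normalized tags than at lower ones. Above 10 the male share rose no further. Untreated peaks of 5 to 15 normalized tags that had no FCCP partner overlapped male BAT peaks at 5.49% (4.68 to 6.43) and female ones at 3.17% (2.56 to 3.91), without matching for height: 2245 of these 2622 had a count of 5 to 7, against 2733 of the 4098 stable peaks. Pairs with a count under 5 gave 2.45% and 1.32%, and untreated peaks under 5 without a partner 2.14% and 1.19%. Pairs of 15 or more gave 6.41% (3.92 to 10.3) for male and 8.12% (5.26 to 12.3) for female BAT. Among stable peaks the male share rose from 4.17% at an untreated count of 5 to 7 to 8.73% at 7 to 10, and was 8.68% above that. The corresponding female shares were 2.63%, 5.14% and 5.69%, or 2.09%, 3.30% and 3.59% with only female BAT peaks below 100 normalized tags. In the same bins the peaks without a partner had male shares of 4.37%, 12.8% (9.59 to 16.9, 320 peaks) and 8.77% (57 peaks), and female shares of 2.67%, 5.94% and 7.02%. At 7 to 10 the male interval without a partner overlapped that of the stable peaks (7.16 to 10.6) only at its lower end. Peaks share libraries and neighbourhoods, so these intervals overstate independence, and no test between the classes was made.

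**Figure D4:**
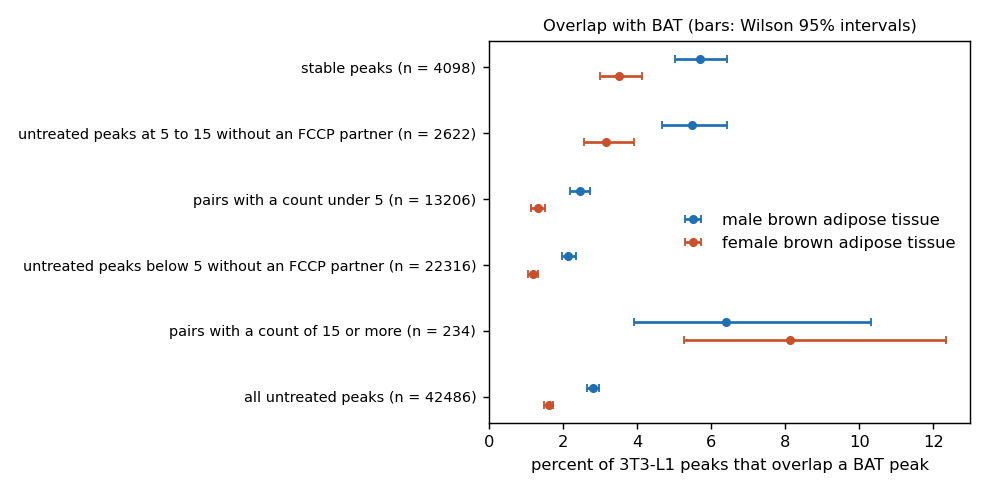
Percent of 3T3-L1 peaks that overlap a male (blue) or female (orange) BAT peak by at least 1 bp, for stable peaks and 5 other classes of untreated peaks; bars are Wilson 95% intervals. Stable peaks and untreated peaks within the same limits without an FCCP partner, which are not matched for height, have male shares of 5.69% and 5.49%, above both classes under 5 normalized tags.

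The BAT peaks at these places stood less far above the knockout than BAT peaks in general. Their median fold over knockout was 3.93 in the male list and 3.51 in the female list, against 5.41 and 6.02 over all BAT peaks of these chromosomes. At least 4-fold was reached by 112 of 233 (48.1%) and 51 of 144 (35.4%), against 78.2% and 91.3%. Counted this way, 2.73% of stable peaks met a male BAT peak (with 1.85% of all untreated peaks) and 1.24% a female one (with 1.20%). Across the bins of untreated count from 5 to 7, 7 to 10 and above, these shares at stable peaks were 2.63%, 2.72% and 3.59% for male BAT and 1.21%, 1.07% and 2.10% for female BAT, with overlapping intervals. The female excess at stable peaks thus lay in BAT peaks less than 4-fold over knockout. Untreated peaks of 5 to 15 without an FCCP partner met a female BAT peak of at least 4-fold more often, at 2.29% (1.78 to 2.93, against 0.948 to 1.63 for stable peaks), while for male BAT they had 2.59%. The BAT peaks concerned were taller than usual, with medians of 5.99 and 6.87 normalized tags against 4.32 and 3.31. The call also asked for a Poisson p of 1e-04 over knockout, which low peaks meet only at a high fold.

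**Figure D5:**
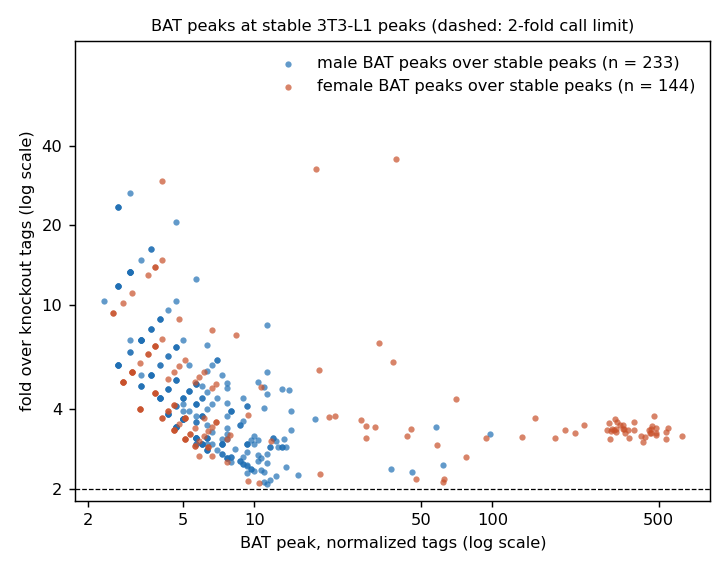
Each BAT peak that overlaps a stable peak, by its height in normalized tags (x, log scale) and its fold over the knockout library (y, log scale), for the 233 male (blue) and 144 female (orange) peaks; the dashed line is the 2-fold limit of the call. A group of 41 female peaks above 100 normalized tags lies apart at 3.01- to 3.79-fold.

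A separate group of female BAT peaks accounted for part of the overlap. Of the 61 female peaks with at least 100 normalized tags on these chromosomes, a limit set after the values were seen, 41 (67.2%) lay on stable peaks, 16 on pairs of 15 or more, 0 on pairs under 5 and 4 on no untreated peak. The 41 made up 1.00% of stable peaks, with 0.134% of all untreated peaks. Pairs of 15 or more carried such female peaks more often for their number, at 16 of 234, so the trait was not particular to stable peaks. A male BAT peak of that height met 0 stable peaks, with 0.00706% of all untreated peaks. At the 41, female BAT held 133.8 to 624.3 normalized tags (median 362.8), whereas the cells held 5.1 to 12.9 without and 5.82 to 14.9 with FCCP. The tallest of the 41 held 2454 tags in 138 bp, past the limit of 1 tag per bp in the call. Peaks in cells were 264 and 261 bp wide with a limit of 3, so heights in tissue and cells are not on one footing. At the 41, the knockout library held 148 to 717 tags, and the fold over knockout was 3.01 to 3.79. The male list had a peak at none of the 41. In the cells FCCP was the higher list at 37 of them, with a median ratio of 1.17. It was the higher at 60.6% of all pairs, with a median ratio of 1.05, and at 79.9% of pairs of 15 or more, with 1.08. No test of this difference was made. The centres of the 2 calls in cells differed by a median of 2 bp at the 41. Of the 41 female centres, 38 lay within 10 bp of the untreated centre. Without such tall peaks, 2.51% of stable peaks (2.08 to 3.04) met a female BAT peak, against 1.48% of all untreated peaks, and 1.28% of pairs of 15 or more (0.437 to 3.70) did. Untreated peaks of 5 to 15 without an FCCP partner had the higher share of 3.17% (2.56 to 3.91), with an overlapping interval.

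Of the 15 stable peaks met by both BAT lists, the tallest in cells was on chromosome 2 at 69156322 to 69156586. It had 9.93 normalized tags without and 11.6 with FCCP, and its BAT peaks had 97.4 in the male list (3.23-fold over knockout, exact 95% interval 2.62 to 3.99) and 38.2 in the female list (6.04-fold, 3.88 to 9.82). On chromosome 5 at 60330987 to 60331251 the cells had 9.13 and 12.4, and BAT had 45.9 (2.31-fold) and 18.6 (5.63-fold). On chromosome 5 at 146976882 to 146977146 the cells had 7.52 and 9.7, and BAT had 37.6 (2.38-fold) and 32.1 (3.43-fold). At these 3 the normalized count was higher in both tissues than in cells, in lists called with unlike peak widths and tag limits. The others were on chromosome 11 at 68879171 to 68879435, with 9.93 and 7.46 in cells and 14.3 and 9.41 in BAT, and on chromosome 10 at 118355191 to 118355455, with 7.38 and 7.91 in cells and 8.31 and 5.6 in BAT. The ratio of FCCP to untreated tags had an interval including 1 at all 5, and only 1 of the 15 was at least 4-fold over knockout in both BAT lists.

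The highest folds over knockout at stable peaks were in female BAT. On chromosome 15 at 79373817 to 79374081, the female peak had 39.4 normalized tags, 155 tags against 4 in the knockout (35.9-fold, 13.7 to 133.3), and the cells had 11.9 without and 10.5 with FCCP. On chromosome 1 at 46797999 to 46798263 it had 18.1, 71 tags against 2 (32.9-fold, 8.77 to 276.6), and the cells had 13.3 in both lists. At these 2 places, a signal that was lower in the knockout than in wild-type tissue sat on 3T3-L1 peaks whose ratio of FCCP to untreated tags had an interval including 1. The male list had no overlapping peak at either. The next 3, on chromosome 2 at 101466049 to 101466313, chromosome 15 at 91517361 to 91517625 and chromosome 13 at 21790473 to 21790737, had only 15 or 16 tags in wild-type BAT. The first of them had no knockout tag, which puts it at least 4.92-fold higher against a floor of 3 tags, and the other two had 1 each (14.8-fold, 2.30 to 621.1, and 13.9-fold, 2.14 to 584.3).

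In male BAT the highest folds rested on few tags. The first 4, on chromosome 9 at 4146958 to 4147222 and chromosome 5 at 6140575 to 6140839, chromosome 5 at 15497845 to 15498109 and chromosome 11 at 47484425 to 47484689, had 8 or 9 wild-type tags and none in the knockout. Against a floor of 3 knockout tags they were at least 4.42-fold higher on chromosome 9 and at least 3.93-fold higher at the other 3. The fifth, on chromosome 16 at 11570088 to 11570352, had 14 tags against 1 (20.6-fold, 3.14 to 872.7), and a female peak lay there too (3.57-fold, 1.52 to 9.71). Ratios of FCCP to untreated tags ran from 0.857 to 1.13 at these 5, with every interval including 1.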

How the data were processed

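Peak lists of 4 GPS2 ChIP-seq samples of 20 were used; of the others, only the knockout BAT libraries bear on the values, through the BAT calls. The submitters' processing notes name the mm8 build, Bowtie2, Bowtie and HOMER. Versions are not given in the sources used here. Per the file headers, calling in 3T3-L1 had no control sample (false discovery rate 0.001, at least 4-fold over 10000 bp, at most 3 tags per bp), and the BAT lists against the knockout (rate 0.05, at least 2-fold over knockout and surroundings, at most 1 tag per bp).

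Normalized tag counts, as deposited, are a signal scaled by the authors to 10000000 tags. The deposited folds over the local region and over knockout are ratios, the deposited focus ratio is a fraction, and the deposited HOMER score and p-value columns entered no comparison. Tags per peak were recovered from the normalized count and the library total, all within 0.4 of a whole number at stable peaks. In the BAT files a knockout count of 0 appears as 0.5 tag.

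Intervals were read as 1-based and closed, and ties in overlap went to the lower start; no peak entered 2 pairs. Shares carry Wilson 95% intervals, and ratios of single peaks exact binomial 95% intervals from tags and library totals. Named peaks are the 5 highest by the lower count, the 5 largest and 5 smallest ratios, the 5 highest by the lower fold over surroundings, the 5 highest by the lower 3T3-L1 count among those met by both BAT lists, and the 5 highest folds over knockout per BAT list. Alternatives changed the overlap, the limits, the chromosomes, the scaling, the BAT peaks taken and the regions left out. The members, classes and rules were chosen with earlier results of these data known. Pairing and intervals were tested on simulated data, and pair numbers checked with bedtools 2.31.1. Computation used SciPy 1.17.1, pandas 2.3.3 and numpy 2.4.6 under Python 3.11.15, and plots matplotlib 3.10.9.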

Additional observations from a re-analysis of the deposited data

How the results depend on the processing

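No paired analysis was possible because each condition has 1 list. Of 34 alternative values, 17 kept the main value within 1.5 times (numbers of peaks) or within its 95% interval (shares and medians). The number of stable peaks fell from 4098 to 1126 with at least 7 normalized tags in both lists and to 559 with at least 8-fold over the local region; the other 4 settings gave 3361 to 4297. The median log2 ratio of 0.06 was 0.042 with at least 7 tags, and turned to -0.0155 once divided by the median ratio of all pairs, as that scaling sets all pairs to 0. The male BAT share of 5.69% was 4.64% with 50% of the shorter peak, 7.35% with centres within 500 bp, 2.73% when BAT peaks had to be 4-fold over knockout, 8.61% with at least 7 tags and 7.51% with at least 8-fold over the local region. The female share of 3.51% was 1.24%, 5.77% and 7.69% under the last 3 of these, and 2.51% with BAT peaks below 100 normalized tags, a setting added after seeing the data, as were leaving out the dense stretches (6.08% and 3.85%) and using the FCCP interval (5.76% and 3.42%). The median centre distance of 34 bp was 30 bp with at least 7 tags and 24 bp with at least 8-fold over the local region, and the share in the chromosome 1 block, 2.34%, was 0.622% and 2.86%. All 35 named peaks kept their ratio within its interval under the scaling. Depth limits single peaks: at 38 to 110 tags, most ratios under 1.5-fold have intervals that include 1.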

Other observations

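The X chromosome was outside the rule. It held 978 overlapping pairs, of which 199 (20.3%) met the same height limits, with a median ratio of FCCP to untreated tags of 1.07.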
